A study of Mus musculus with 9 samples.

Results

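Occupancy by NLRC5 was examined at 10 genes of peptide processing and loading, *Tap1*, *Tap2*, *Tapbp*, *Psmb8*, *Psmb9*, *Psmb10*, *Erap1*, *Calr*, *Canx* and *Pdia3*. They were chosen by their role in making and loading class I peptides, from 21951 protein-coding genes of the GENCODE M21 annotation.

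Cytotoxic T cells recognise short peptides that MHC class I molecules carry to the cell surface. Proteins are cut by the proteasome, whose immunoproteasome form carries the catalytic subunits encoded by *Psmb8*, *Psmb9* and *Psmb10*. The peptides are pumped into the endoplasmic reticulum by the transporter that *Tap1* and *Tap2* encode, trimmed by the aminopeptidase ERAP1, and loaded onto class I heavy chains with the help of tapasin (*Tapbp*), calreticulin (*Calr*), calnexin (*Canx*) and the thiol oxidoreductase ERp57 (*Pdia3*). NLRC5 is a transactivator of MHC class I genes. It does not bind DNA by itself and is brought to promoters by an enhanceosome that includes the RFX complex, of which RFX5 is a subunit.

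Peaks were read from 7 lists made by chromatin immunoprecipitation and sequencing (ChIP-seq) of T cells with a rabbit polyclonal antibody against an N-terminal stretch of mouse NLRC5. A gene was called occupied when a peak overlapped its gene body or the 5 kb to either side of its transcription start site (TSS) by at least 1 bp. By this rule 8 peaks lay at the 10 genes, of 8593 peaks in all 7 lists. The lists were named for their genotype, and 5 of them, WT A to WT E, came from wild-type C57BL/6 mice of the H2b haplotype. These 5 were pseudo-replicates, subsets of the reads of 1 library, so that they say nothing of how mice differ. They were not all alike. WT A and WT B held 459 and 529 peaks, of which 21.1% and 21.2% lay at promoters of protein-coding genes. WT C, WT D and WT E held 1436, 1043 and 1207 peaks, with 7.73%, 9.3% and 10.1% at promoters. What sets these lists apart was not tested. The list *Nlrc5F/F* came from mice of the same strain background that carry a functional floxed *Nlrc5* gene and served as the biological repeat. The list *Rfx5-/-* came from mice that lack RFX5, on a mixed Sv129/C57BL/6 background of the H2b haplotype, so that this genotype and its background cannot be told apart. The methods name reads of *Nlrc5-/-* T cells as the negative control for peak calling, without a separate statement for the *Rfx5-/-* list. Mice were 6 to 12 weeks old, T cells had been enriched with magnetic beads against CD4, CD8 or both, and chromatin of 5 mice was pooled for each genotype. Every genotype is thus represented by 1 library, no test between genotypes was possible, and no p-value is given. Peak lists hold no expression values, so the identity of the cells could not be checked against marker genes.

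*Tap1* and *Psmb9* were the members with a reproducible peak, and they shared it. The genes lie head to head on chromosome 17 of GRCm38, *Tap1* (ENSMUSG00000037321) on the plus strand at chr17:34187553-34197225 and *Psmb9* (ENSMUSG00000096727) on the minus strand at chr17:34181987-34187764. In the RefSeq annotation *Tap1* starts at 34187556 and *Psmb9* at 34187330, 226 bp apart with transcription pointing away from each other. In GENCODE M21 the outermost *Psmb9* start is at 34187764, inside *Tap1*, so that the genes overlap by the 211 bp between their starts. The whole stretch below then lies within the *Psmb9* gene. The bases between the RefSeq start of *Psmb9* and the GENCODE start of *Tap1* carry the finding and are shown as the plus strand of GRCm38.p6, chr17:34187331-34187552, from RefSeq. Capitals mark, from left to right, a CCAAT sequence, an S box and an X box, the last being the element that RFX complexes are known to bind.
*Tap1*/*Psmb9* shared promoter: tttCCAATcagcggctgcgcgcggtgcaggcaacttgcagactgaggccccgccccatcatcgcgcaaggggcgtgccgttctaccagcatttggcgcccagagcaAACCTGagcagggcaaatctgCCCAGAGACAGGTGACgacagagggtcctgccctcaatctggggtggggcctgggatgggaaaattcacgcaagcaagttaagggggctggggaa

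The S and X boxes were found with the pattern AACNT, any 20 bases, and then the X part, which reads GANA, any 2 bases, G, any base and TGAC, on either strand, which describes what the S and X boxes of the study's occupied promoters have in common. In windows of 300 bases around RefSeq starts, 10 of 27025 genes (0.037%) held it, among them *Tap1* and *Psmb9*, whose windows overlap and contain the same copy. The other 8 were *B2m*, *Gm6034*, *H2-D1*, *H2-K1*, *H2-Q4*, *H2-Q6*, *H2-Q7* and *H2-T22*. No other member with a promoter entry held the pattern, 9 of the 10 members having an entry and *Tap2* having none. Because *Tap1* is among the promoters from which the pattern was drawn up, its match is a description and was not tested. The X part alone occurred in 284 genes (1.05%) and again in *Tap1* and *Psmb9* alone among the members.

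The *Tap1* module is set beside those of *B2m*, the light chain of class I molecules, of *H2-K1*, a classical heavy chain, and of *H2-T22*, a non-classical heavy chain gene that also faces another gene, *Gm6034*, at its promoter. Each is shown 5′ to 3′ from its S box, on the strand of its gene. Capitals mark the S box, the X box and, where it was found, ATTGG, the core of a Y box, with the 3 bases after it. The positions in GRCm38.p6 are chr17:34187437-34187503 on the plus strand for *Tap1*, chr2:122147576-122147641 on the plus strand for *B2m*, chr17:34000356-34000421 on the minus strand for *H2-K1* and chr17:36042823-36042915 on the minus strand for *H2-T22*.
Tap1: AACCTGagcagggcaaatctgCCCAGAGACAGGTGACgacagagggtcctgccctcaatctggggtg
B2m: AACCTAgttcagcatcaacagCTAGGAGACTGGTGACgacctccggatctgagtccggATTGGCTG
H2-K1: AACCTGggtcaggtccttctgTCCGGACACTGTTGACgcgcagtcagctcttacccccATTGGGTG
H2-T22: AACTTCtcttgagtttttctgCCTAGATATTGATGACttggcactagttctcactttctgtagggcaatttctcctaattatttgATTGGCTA

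The S and X boxes of *Tap1* were compared base by base with those of the other 3 promoters, and the Y box was searched for only as the exact letters ATTGG. In the S box, *Tap1* shared 6 of 6 bases with *H2-K1*, 5 with *B2m* and 4 with *H2-T22*. In the X box it shared 12 of 16 bases with *B2m* and 11 with each of *H2-K1* and *H2-T22*. These counts include the fixed letters of the search pattern, which match in every module by its choice. In the S box 4 bases are fixed in this way, so 4 is the lowest count possible there. In the 15 bases between the boxes, which the pattern leaves free, *Tap1* shared 7 with *H2-K1*, 6 with *H2-T22* and 4 with *B2m*. The ATTGG followed the X box after 21 bases in *B2m* and in *H2-K1* and after 48 bases in *H2-T22*. At *Tap1* these exact letters were not in the 60 bases after the X box. A Y box with other letters was not searched for, so this says nothing of whether *Tap1* has one. A CCAAT lay on the other side of the module, at 34187334 to 34187338, 98 bases before the S box and 4 bp from the RefSeq start of *Psmb9*. An ATTGG in either orientation is common, being present in 41.1% of the 27025 promoters and in 6 of the 9 members with an entry.

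**Figure D1:**
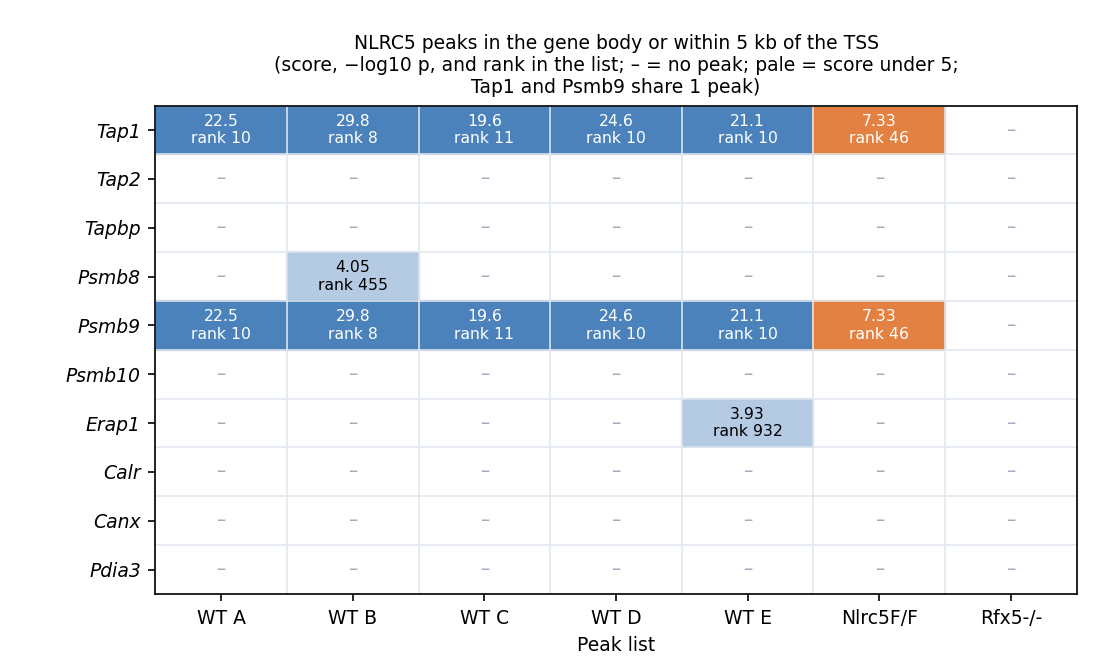
Presence of an NLRC5 peak at each of the 10 genes (rows) in each of the 7 peak lists (columns). Each filled cell gives the score, the −log10 p-value of the peak caller, and the rank of the peak by score within its list, and a dash stands for no peak. *Tap1* and *Psmb9* carry their shared peak in 6 lists, *Psmb8* and *Erap1* each have a peak in 1 list, and the column *Rfx5-/-* is empty.

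In wild-type T cells the shared *Tap1*/*Psmb9* promoter was among the 11 highest peaks of every list. Scores, which are −log10 p-values of the peak caller, were 22.5 in WT A, 29.8 in WT B, 19.6 in WT C, 24.6 in WT D and 21.1 in WT E. By score the peak ranked 10 of 459 peaks in WT A, 8 of 529 in WT B, 11 of 1436 in WT C, 10 of 1043 in WT D and 10 of 1207 in WT E. The rank thus moved by few places between read subsets although the length of the lists differed by more than 3-fold. Between 0.696% and 1.96% of the peaks of a list stood above it. Its width was 404, 369, 405, 381 and 385 bp in WT A to WT E, against a median of 100 to 139 bp over all peaks of a WT list. By width it ranked between 8 and 11.

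The *Nlrc5F/F* list held a smaller and narrower peak at the same place. Its score was 7.33, which ranked 46 of 1949 peaks, so that 2.31% of the list stood above it. Its width of 159 bp ranked 232 in that list. All 5 WT values lie above the *Nlrc5F/F* value in score and in width, but scores depend on read depth as well as on occupancy. The methods give 1 read number for all WT pseudo-replicates and only a lower bound for the *Nlrc5F/F* library, so the depths cannot be matched here, and the part of depth in the difference was not tested. In the *Rfx5-/-* list no peak lay at the promoter, and the nearest one, at chr17:34400083-34400177 with a score of 4.46 and rank 687, was 213 kb from the *Tap1* start. The highest score anywhere in the *Rfx5-/-* list was 33.8, compared with 103 in *Nlrc5F/F* and between 160 and 244 in the WT lists. For the *Rfx5-/-* library, too, only a lower bound of reads is given, so these scores do not compare occupancy. They were taken over all chromosomes. Mitochondrial peaks numbered 11 in *Rfx5-/-*, 0 in *Nlrc5F/F* and 6 to 9 in the WT lists.

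Among all protein-coding genes, a peak in all 5 WT lists was rare. It was found at 39 of 21951 genes (0.178%), and 2 of the 10 members, *Tap1* and *Psmb9*, were among them. Both also met the stricter pattern of a peak in all 5 WT lists and in *Nlrc5F/F* with none in *Rfx5-/-*, which 14 genes (0.0638%) met. Besides these, 8 genes of that group were the *H2* genes *H2-D1*, *H2-K1*, *H2-Q4*, *H2-Q6*, *H2-Q7* and *H2-T22* together with *B2m* and *Gm6034*, and the other 4 were *Gm17019*, *Gm19684*, *Gm7030* and *Patl2*. All 10 genes with the S and X pattern are thus in the group, which the choice of the pattern from occupied promoters in part fixes. In a window from 500 bp upstream to 50 bp downstream of the GENCODE start, 9 of 21938 genes (0.041%) held the pattern, with *Tap1* alone among the members. *Psmb9* and *H2-D1* were not among these 9, and *Gm19684* was. Since *Tap1* and *Psmb9* share 1 peak and 1 S and X module, they count as 1 observation rather than 2 independent ones.

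The position of the peak was nearly the same in all WT lists. It ran from chr17:34187310 to 34187713 in WT A, from 34187313 to 34187681 in WT B, from 34187308 to 34187712 in WT C, from 34187315 to 34187695 in WT D and from 34187336 to 34187720 in WT E. The left borders thus fell within 28 bp and the right borders within 39 bp, and 346 bp (34187336 to 34187681) were common to all 5. In *Nlrc5F/F* the peak ran from 34187342 to 34187500, wholly inside these common bases. Its left border was 6 bp from the nearest WT border, whereas its right border ended 181 bp before the earliest WT end. The narrower peak as called thus lacked the side that reaches into *Tap1*. The part of read depth in its width and borders was not tested.

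**Figure D2:**
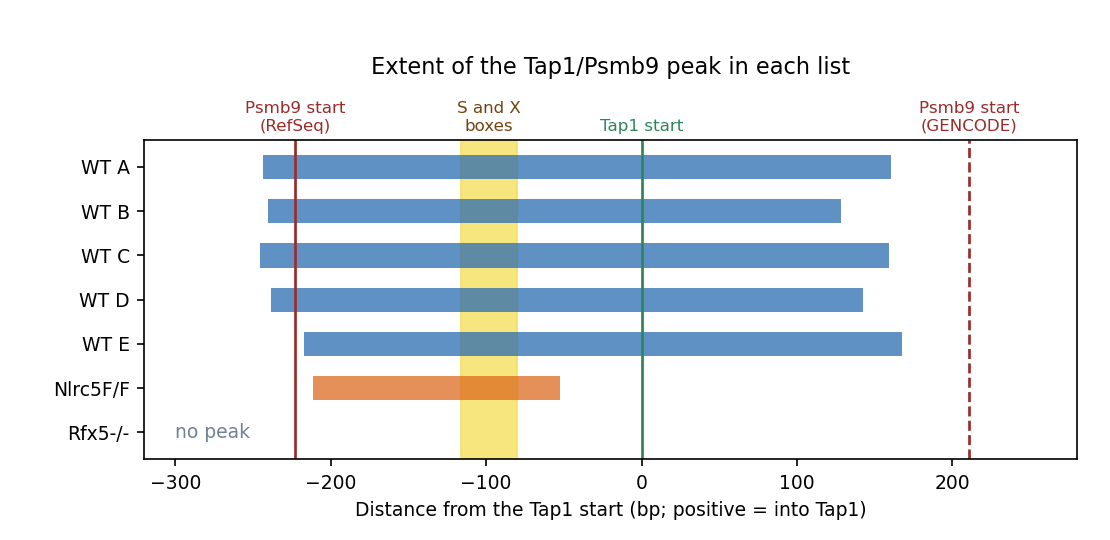
Extent of the shared peak in each list, drawn as bars on a scale of distance from the GENCODE *Tap1* start in bp, positive values pointing into *Tap1*. Vertical lines mark the *Tap1* start and the RefSeq and GENCODE starts of *Psmb9*, and the yellow band marks the S and X boxes. The bars of WT A to WT E cover the band and the *Tap1* start, the *Nlrc5F/F* bar covers the band and ends before the *Tap1* start, and *Rfx5-/-* has no bar.

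Relative to *Tap1*, the peak centres lay upstream, by 41.5 bp in WT A, 56 bp in WT B, 43 bp in WT C, 48 bp in WT D and 25 bp in WT E, and by 132 bp in *Nlrc5F/F*. All 5 WT peaks held the *Tap1* start of both annotations, and the *Nlrc5F/F* peak held neither. Relative to *Psmb9* the answer depended on the annotation. From its RefSeq start the WT centres lay upstream by 167 to 198 bp (median 180 bp) and the *Nlrc5F/F* centre by 91 bp. From its GENCODE start they lay downstream, by 236 to 267 bp (median 254 bp) in WT and by 343 bp in *Nlrc5F/F*. The peaks of WT A to WT D held the RefSeq start of *Psmb9*, those of WT E and *Nlrc5F/F* stopped short of it, and none held the GENCODE start. Counted over promoters alone (500 bp upstream to 50 bp downstream of the GENCODE start), 1 member, *Tap1*, had a peak in all 5 WT lists, as had 0.0774% of all genes, and 1, again *Tap1*, had one in *Nlrc5F/F*, as had 0.364%.

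The S and X boxes, at 34187437 to 34187473, lay 80 to 116 bp upstream of the *Tap1* start. From the RefSeq start of *Psmb9*, the S box lay 107 bp and the X box 128 bp upstream. They were inside the peak in all 6 lists that had one. The middle of the X box was 46, 31.5, 44.5, 39.5 and 62.5 bp from the peak centre in WT A to WT E, where the centre lay on the *Tap1* side of it. In *Nlrc5F/F* the distance was 44.5 bp and the centre lay on the *Psmb9* side.

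The *Tap1*/*Psmb9* peak scored lower than those of *B2m* and *H2-K1* and was narrower than those of *B2m*, *H2-K1* and *H2-T22* in every WT list, whereas its score was not separated from that of *H2-T22*. Other occupied promoters were not compared. These 3 promoters were chosen by the study on these same samples, and they serve only to place the values of *Tap1*. *H2-K1* had a median WT score of 119 (104 to 150) with rank 4, and *B2m* one of 86.9 (66.5 to 96.7) with rank 6. *Tap1* scored 22.5 (19.6 to 29.8) with rank 10, below both in 5 of 5 WT lists and in *Nlrc5F/F*. *H2-T22* was closest to it with a median of 27.7 (16.6 to 36.4) and rank 9, and *Tap1* scored higher than *H2-T22* in 2 of 5 WT lists and, with 7.33, in *Nlrc5F/F*, so the order of these sites was not settled by the read subsets. In width, by contrast, *Tap1* was narrower than each of the 3 in 5 of 5 WT lists, with a median of 385 bp (369 to 405) against 656 bp for *H2-K1*, 700 bp for *B2m* and 710 bp for *H2-T22*. In *Nlrc5F/F* the peak of *H2-T22* was also small, with a score of 6.12, rank 262 and a width of 178 bp, whereas *B2m* and *H2-K1* kept widths of 621 and 478 bp there. The S and X boxes of *H2-T22* were inside the peak in all 5 WT lists but not in *Nlrc5F/F*, unlike those of *Tap1*. None of the 3 had a peak in *Rfx5-/-*, as was the case for *Tap1*.

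**Figure D3:**
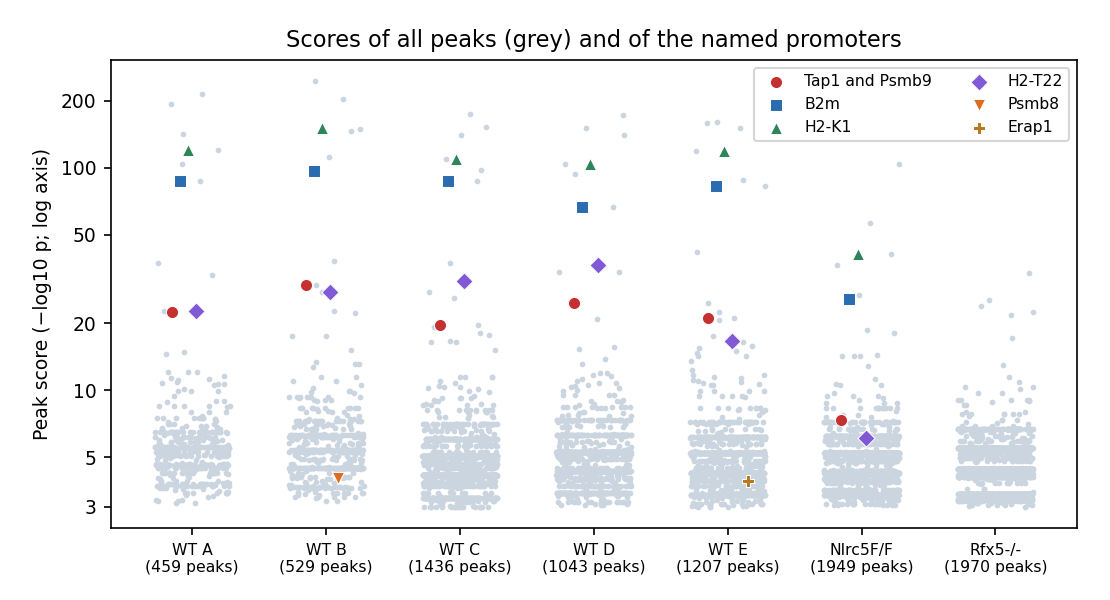
Peak scores (−log10 p-value, logarithmic axis) in each list, with every peak of the list in grey and the named promoters in colour. The shared *Tap1*/*Psmb9* peak lies between 19.6 and 29.8 in WT, near *H2-T22* and below *B2m* and *H2-K1*, and the single peaks of *Psmb8* and *Erap1* lie at the bottom of WT B and WT E.

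Of the remaining genes of the peptide supply, *Psmb8*, which encodes the immunoproteasome subunit LMP7, had a single peak in WT B. The gene (ENSMUSG00000024338, chr17:34197721-34201454, plus strand) begins 496 bp after the end of *Tap1*. The peak, chr17:34197613-34197760, was 148 bp wide, had a score of 4.05 and ranked 455 of 529, with 85.8% of the list above it and 6 peaks of the list at this score. It covered the GENCODE start, its centre being 34.5 bp upstream. The RefSeq start lies 474 bp further downstream. No other list had a peak at *Psmb8*, whose nearest peak in the other WT lists and in *Nlrc5F/F* was the shared *Tap1*/*Psmb9* peak about 10 kb away. The part of the peak before the gene start is given as the plus strand of GRCm38.p6, chr17:34197613-34197720, to show what a weak peak at a member's start holds, with a full cyclic AMP response element (TGACGTCA) in capitals.
Psmb8, WT B peak: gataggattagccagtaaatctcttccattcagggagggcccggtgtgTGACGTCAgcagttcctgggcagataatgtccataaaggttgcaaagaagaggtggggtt

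The peak held no match to the S and X pattern. The search for TGACGTCA was added after it had been seen there, and 549 of 27025 promoters (2.03%) hold it on either strand. The RefSeq promoter of *Psmb8* lies downstream of these bases, and it held a TTCNNNGAA, the letters of a STAT site, as did 9.55% of all promoters.

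*Erap1* (ENSMUSG00000021583, chr13:74639568-74693201, plus strand) also had 1 peak, in WT E. It lay in an intron, at chr13:74642991-74643088, with its centre 3471.5 bp downstream of the start. Its width was 98 bp and its score 3.93, which ranked 932 of 1207, with 77.1% of the list above it and 33 peaks of the list at this score. Both single peaks were of a kind that is common in these lists, since between 71.9% and 86.8% of the peaks of a WT list overlapped no peak of any other list. At the level of genes, 2 of the 10 members had a peak in exactly 1 list, and 11.9% of all protein-coding genes did.

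No peak was called in any list at the other 6 members. *Tap2* (ENSMUSG00000024339, chr17:34203527-34216321, plus strand), the partner subunit of TAP1, lies in the same block of genes, 2073 bp after *Psmb8*, and its start was 15.8 kb from the shared *Tap1*/*Psmb9* peak at most in WT and 16 kb in *Nlrc5F/F*. In WT B the *Psmb8* peak came within 5.77 kb of it. *Tapbp* (ENSMUSG00000024308, chr17:33915899-33929292, plus strand), the bridge between class I molecules and the transporter, lies 253 kb from the block. Its nearest peak was 52.9 to 84.3 kb away, and 63 kb in every WT list. Across the 34.3 kb from the end of *Psmb9* to that of *Tap2*, the lists held 1, 2, 1, 1, 1, 1 and 0 peaks from WT A to *Rfx5-/-*.

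The members outside chromosome 17 had no nearby peak in most lists. *Psmb10* (ENSMUSG00000031897, chr8:105935735-105938444, minus strand), which encodes the third immunoproteasome subunit, had its nearest peak 73 to 230 kb from the start. For *Calr* (ENSMUSG00000003814, chr8:84841850-84846934, minus strand), whose product is a chaperone of the loading complex, this distance was 12.7 to 575 kb. For *Canx* (ENSMUSG00000020368, chr11:50293961-50325673, minus strand), the membrane-bound chaperone of new heavy chains, it was 45.9 to 1232 kb. *Pdia3* (ENSMUSG00000027248, chr2:121413775-121438687, plus strand) had its nearest peak 13.5 kb away in *Nlrc5F/F* and 283 to 733 kb away in WT. *Pdia3* was the only member besides *Tap1* and *Psmb9* with a start on the opposite strand within 1000 bp, that of *Catsper2* at 17 bp.

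**Figure D4:**
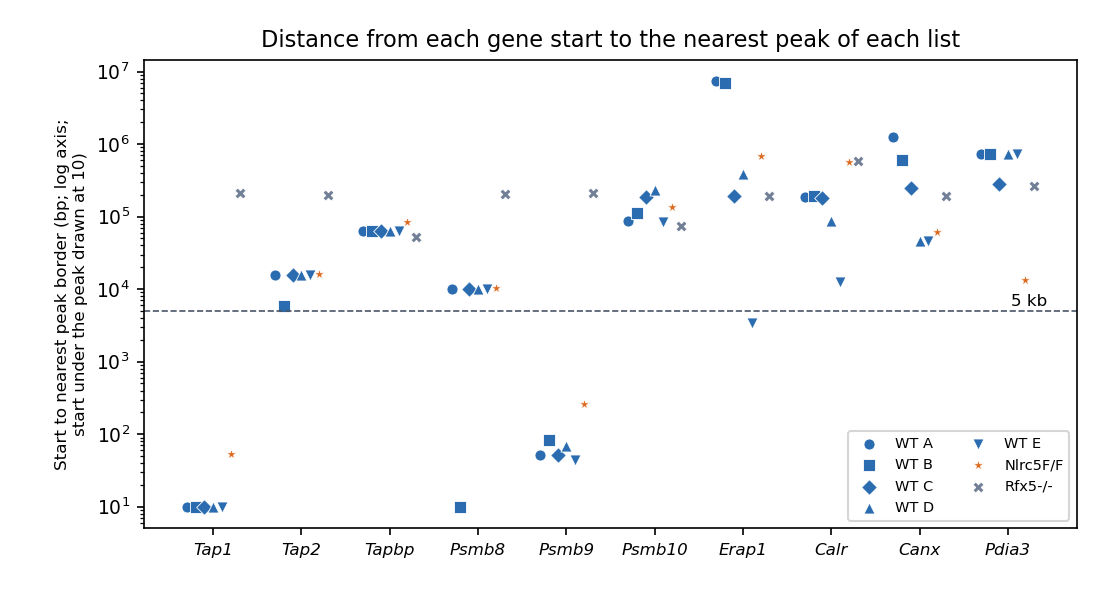
Distance in bp from the GENCODE start of each member to the nearest peak border in each of the 7 lists, on a logarithmic axis, with starts under a peak drawn at 10 bp and the 5 kb window as a dashed line. *Tap1* and *Psmb9* lie below the line in all lists but *Rfx5-/-*, *Psmb8* in WT B alone and *Erap1* in WT E alone, and the other 6 genes lie above it throughout.

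The authors kept reads with a single position in the genome, and the share of such positions was measured near the starts. Of all windows of 50 bases within 500 bp of the start, 100% occurred once in the genome at each of the 10 members and at *B2m*, compared with 94.9% at *H2-K1* and 78.8% at *H2-T22*. With windows of 36 bases the share was 99.7% at *Tap2*, 99.4% at *Tapbp* and 99.3% at *Psmb10*, all without a peak, and 100% at the other 7 members. The rest of the gene bodies and of the 5 kb windows was not measured. The GC content of the promoters ranged from 45.7% at *Psmb10* to 75.7% at *Pdia3*, with 61% at *Tap1* and 62% at *Psmb9*, against a median of 52.7% over all promoters. The part of base composition in the calls was not tested. Of the other letters searched for, TGACG occurred in *Tap1*, *Psmb9*, *Canx* and *Pdia3* (23% of all promoters). In *Tap1* and *Psmb9* it was 1 shared copy, made of the end of the X box and the base after it, and thus no further element. The interferon response element (GAAA, any 2 bases, GAAA) occurred in *Erap1* alone (3.99%). The *Erap1* window, chr13:74639603-74639902, lies downstream of both its GENCODE start at 74639568 and its RefSeq start at 74639573. Such elements with other letters were not searched for and *Tap2* had no entry, so this does not show that the other members lack one. Each was searched for on either strand.

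List by list, the members with a peak numbered 2 in WT A (1.64% of all protein-coding genes had one), 3 in WT B (1.79%), 2 in WT C (3.71%), 2 in WT D (2.81%), 3 in WT E (3.22%), 2 in *Nlrc5F/F* (4.62%) and 0 in *Rfx5-/-* (4.32%). In every list with members called, *Tap1* and *Psmb9* made up 2 of them. In at least 1 of the 7 lists 4 of the 10 members had a peak, against 16.0% of all genes, and the same 4 had one in at least 1 WT list, against 10.2%. In *Rfx5-/-*, 949 genes had a peak, and none was a member. With 10 members, 0 is also the number nearest to that share, so the count by itself says little, and it is the missing peak at *Tap1* and *Psmb9* that separates this list from the other 6.

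The same count was made over 32 other genes of peptide production, trimming, transport and glycoprotein folding, among them the constitutive proteasome subunits, the proteasome activator, cytosolic peptidases and the Sec61 channel. Of these, 0 had a peak in all 5 WT lists (0.178% of all protein-coding genes), 0 had one in *Nlrc5F/F* (4.62%) and 0 in *Rfx5-/-* (4.32%), and 7 had one in at least 1 WT list (10.2%). With so rare a background, 0 of 32 in all 5 WT lists is no result about these genes. At *Psmb5*, the constitutive counterpart of *Psmb8*, peaks of score 4.05 in WT B and 3.45 in WT C were centred 113.5 and 84.5 bp upstream of the start. At *Psma2*, a structural proteasome subunit, peaks of 5.08 in WT A and 5.12 in WT D lay at the start. *Hspa5*, the chaperone BiP, had 1 peak of 3.39 in WT E, 4455 bp upstream, and *Psmb7*, the constitutive counterpart of *Psmb10*, 1 of 4.15 in WT D. The peaks at the folding sensor *Uggt1* (6.04, 6.32 and 5.22 in WT C, D and E), at the trimming peptidase *Lnpep* (6.25 and 5.71 in WT C and D) and at the cytosolic peptidase *Blmh* (6.46 and 4.82 in WT C and D) lay more than 5 kb inside genes that are longer than any of the 10 members. The highest of these scores, 6.46, was below every WT score of the *Tap1*/*Psmb9* peak.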

How the data were processed

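The authors mapped Illumina HiSeq reads to GRCm38 with Bowtie 0.12.7, kept unique positions, and called peaks with MACS2 2.0.10.20130520 at p = 0.001 against the *Nlrc5-/-* reads (CASAVA 1.8.2 is also named in the submitters' processing notes). The score in the deposited lists was read as the authors' −log10 p-value, because the lowest score of every list was just above 3. The settings for the *Nlrc5F/F* and *Rfx5-/-* lists were not given separately. The methods give the reads per WT pseudo-replicate and a lower bound for the other libraries, but the lists give no read numbers, so how many reads lie behind a single peak is unknown. Of 9 samples, 2 (the *Nlrc5-/-* and complete WT data) were not analysed here.

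Peak positions were counted from 1. Genes and starts came from GENCODE M21, which has the coordinates of GRCm38, with RefSeq starts (GRCm38.p6) beside them. The GENCODE start is the outermost one of a gene. Ranks were by score within a list, ties sharing the lowest rank. Promoter sequences were those of RefSeq. Python 3.11.15, numpy 2.4.6 and matplotlib 3.10.9 were used, and the overlap, pattern and uniqueness steps were tested on simulated data. The rank step was not. No significance test between genotypes was run, since there was 1 library per genotype. Dixon's ratio was used only to flag outlying values among the WT lists, as a description. The members, the comparison promoters, the list of 32 genes and the patterns were chosen with earlier results of these data known. The genes named were all members, the 3 comparison promoters and any of the 32 genes with a peak.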

Additional observations from a re-analysis of the deposited data

Results flagged for a closer look

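Of 6 measures of the *Tap1*/*Psmb9* peak over the 5 WT lists, the left border in WT E, at 34187336, stood apart from the other 4, with a gap to its neighbour of 0.75 of the whole range. The critical value of Dixon's ratio was 0.71. For a single measure of independent values, chance sets such a value apart in about 1 of 20 groups of this size. Here 6 measures were looked at and the 5 lists are subsets of 1 library, so that rate does not hold and the flag is a description. The border was the reason why the WT E peak stopped short of the RefSeq start of *Psmb9*.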

How the results depend on the processing

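The member counts of 2 in all 5 WT lists, 2 in *Nlrc5F/F* and 0 in *Rfx5-/-* and the ranking of the promoters did not change with most alternatives. Of the alternative values of the main results, 131 kept their direction and stayed within a set tolerance, 20 moved and 2 changed sign. The tolerance passed small changes, such as 5 members in place of 4 in at least 1 list with a 10 kb window. It also passed 0.128% in place of 0.178% of genes in all 5 WT lists with a 1 kb window. Many of the 131 left out 1 WT list, a subset of the same library. Taking only promoters (500 bp up to 50 bp down of the start) left 1 member in all 5 WT lists (0.0774% of genes) and 1 in *Nlrc5F/F* (0.364%), because the GENCODE start of *Psmb9* lies beyond the peak, while the RefSeq start, an alternative added after the data were seen, gave 2 and 2. That rule gave 2.32% of genes with a peak in at least 1 list. Counting any WT list gave 4 members in place of 2. A score of at least 10 left 0 members in *Nlrc5F/F* (0.0501% of genes), 0.0683% of genes in all 5 WT lists, and 2 members (0.264%) in at least 1 list. A score of at least 5 gave 1.97% of genes in *Nlrc5F/F*, 2 members (7.66%) in at least 1 list and 4 of the 32 other genes in place of 7. The TSS window alone gave 1.33% of genes in *Nlrc5F/F* and 6.55% in at least 1 list. The median distance of the WT peaks from the *Tap1* start, -43 bp by the centre, was 159 bp by the nearest border, and that from *Psmb9*, 254 bp by the centre and GENCODE start, was -180 bp by the RefSeq start and 52 bp by the nearest border; these are other definitions of distance. The median WT rank of 10, given instead as the share of the list ranked above the peak, had a median of 0.863% (0.696% to 1.96%). With windows of 36 bases the lowest uniqueness among the members was 99.3%. Leaving out each WT list in turn gave 2 members in all remaining WT lists each time and 3 to 4 in at least 1 list, *Psmb8* resting on WT B and *Erap1* on WT E. A window of 10 kb gave *Tap2* a peak in 1 list. No paired analysis was possible because the lists are single libraries or subsets of one and no comparison came from a test. Weak occupancy under the caller's threshold cannot be seen in peak lists, so a member without a peak is not shown to be free of NLRC5.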
